A study of Homo sapiens with 18 samples.

Results

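Ferrostatin-1 (Fer-1) pre-treatment followed by RSL3 was compared with no treatment in MM1S, an established multiple myeloma line that is killed by glucocorticoids. Its members are 6 of the 18 libraries of the series, chosen by their labels and paired within passages 16, 22 and 23 of the line. The 3 treated cultures received 2 µM Fer-1 for 2 h and then 5 µM RSL3 for 3 h, and the 3 untreated cultures received neither agent. The other libraries used here for comparison were 3 of MM1S cells of the same passages given 5 µM RSL3 for 3 h without Fer-1. From MM1R, the glucocorticoid-resistant sister line, 3 untreated and 3 Fer-1 plus RSL3 libraries of passages 4, 6 and 7 were used, at the same doses. The lines also differed in passage number, so differences by line and by passage number cannot be told apart. All cultures grew in RPMI medium with fetal bovine serum. No group of the 18 libraries received Fer-1 alone, so a response to Fer-1 and a response to RSL3 that does not need lipid peroxidation cannot be told apart. The libraries hold no measure of lipid peroxidation, so how fully Fer-1 blocked it is not known from them. No group was labelled as given solvent alone, so an effect of solvent or handling cannot be told apart either. Each line is 1 established line, and the replicates are passages of it. As passage was a block in the test, the p-values measure how treatment differences vary between passages. The spread of each gene was estimated over all 18 libraries.

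RSL3 is an electrophile that blocks GPX4, the selenoenzyme that reduces lipid peroxides in membranes, and cells in which these peroxides spread die by ferroptosis. Fer-1 traps the radicals that carry lipid peroxidation, and is used to separate what depends on it from what does not. Electrophiles and misfolded proteins are also known to engage KEAP1 and NRF2, which drive antioxidant genes, HSF1, which drives chaperones, and the integrated stress response, in which ATF4 drives amino acid supply and stress regulators.

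The 6 libraries held 18498876 to 19368343 counts, and filtering left 14281 genes for testing. The 3 plasma cell markers with the highest levels, XBP1, IRF4 and SLAMF7, did not pass the test, and the 8 tested plasma cell markers plus CD27, which was near 0, summed to 4990 to 5580 CPM (counts scaled to library size and TMM factor) without treatment and 4390 to 5180 with Fer-1 and RSL3. Within that list TNFRSF17 (BCMA) was 0.86 lower on the log2 scale (FDR = 0.000178) and SDC1 0.56 lower (FDR = 0.0035), while CD38 was 0.52 higher (FDR = 0.0108, 54.3 to 117 CPM before and 102 to 143 CPM after), none reaching the fold limit. Of 4 T cell markers 2 were at 0, the list sum was 3.83 to 7.93 CPM without treatment and 3.42 to 6.67 CPM with it, mostly from CD3E. Of 4 monocyte markers none passed 6 counts in a library (list sum 0 to 0.466 and 0.21 to 0.273 CPM). HBB gave all of the 4-gene erythroid sum (3.4 to 8.29 and 4.25 to 8.97 CPM), and the 5 stromal and epithelial markers summed to 0.94 to 2.18 and 1.63 to 4.1 CPM. Counts of the 2 mitochondrial ribosomal RNA genes were 0.407 to 0.687% of the untreated and 0.776 to 1.39% of the Fer-1 plus RSL3 libraries, and the part of this shift in the results below was not tested. In bulk RNA, fewer cells of a kind and less RNA per cell cannot be told apart. The passage 16 library of RSL3 alone stood apart, with the lowest TMM factor of the 18 (0.864) and 10.5% of its counts in 10 genes, against 6.4 and 6.75% in the other two.

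Fer-1 plus RSL3 still left a broad response. HMOX1, OSGIN1 and SRXN1 of the antioxidant response, HSPA6, DNAJB1 and BAG3 of the heat shock response, and CHAC1, DDIT3 and TRIB3 of the ATF4 programme were upregulated in every passage, and TFRC, SOX2 and KLF13 were downregulated. Of the genes tested, 383 were differentially expressed genes (DEGs), 2.68% of all, by edgeR's quasi-likelihood test with passage as a block (DEGs had an FDR below 0.05 together with a log2 difference beyond 1 or -1). There were 262 upregulated DEGs (1.83% of genes tested) and 121 downregulated DEGs (0.847%). Without a fold limit, 2093 genes passed (14.7%), 1022 higher (7.16%) and 1071 lower (7.5%). An unadjusted p under 0.05 was reached by 29.2% of genes tested. The counts of list members below are to be read against these shares. Among DEGs, 67 rises but 4 falls were over 2 on the log2 scale, and the medians were 1.53 and -1.23, against a median of -0.0027 over all genes tested. All 383 changed in the same direction in the 3 passage pairs. The test paired these same passages, so this is no separate support for the calls. It also counts pairs with almost no change, such as IFI44L in passage 23 (log2 difference 0.0307). The treated libraries lay wholly above the untreated ones for 227 of the 262 (14.7% of all genes tested did) and wholly below for 104 of the 121 (13.6% of all).

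**Figure D1:**
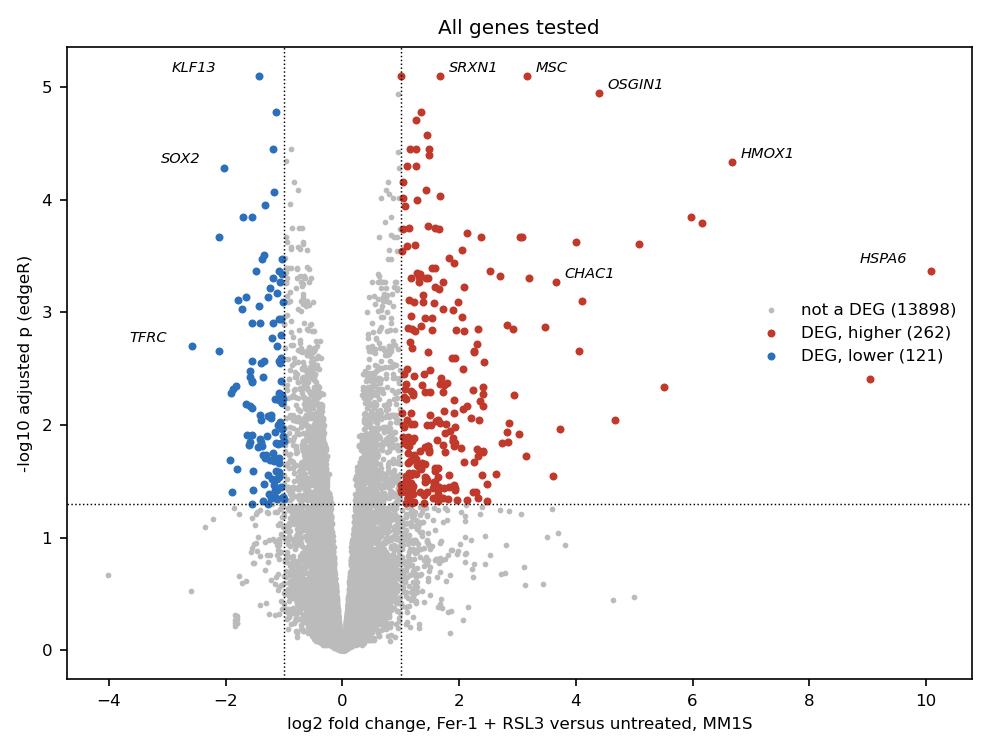
Log2 fold change (x axis) against -log10 of the edgeR adjusted p (y axis) for each gene tested in MM1S cells, Fer-1 plus RSL3 versus untreated. Red points are the 262 upregulated DEGs, blue points the 121 downregulated DEGs, grey points the other genes, and the dotted lines mark an FDR of 0.05 and a log2 fold change of 1. The red points reach past 10 at HSPA6, and the lowest blue point is TFRC at -2.58.

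Many upregulated DEGs started from little RNA. The untreated mean was under 1 CPM for 114 of the 262 (43.5%, against 16.1% of all genes tested), and for 13 every untreated library was at the floor of 3 counts (0.154 CPM), so their fitted folds are not exact. The DEG count also depended on the block and on single cultures. It was 195 without the passage block, 183 without the untreated library of passage 16, and 229 without all MM1S libraries of that passage.

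NRF2 targets carried some of the steepest and most precise rises. HMOX1 (chromosome 22, 35776354 to 35790207, hg19), which encodes the heme-degrading enzyme heme oxygenase 1, was at 10.6, 9.09 and 13.2 CPM in the untreated libraries of passages 16, 22 and 23, and at 1220, 1142 and 975 CPM with Fer-1 and RSL3. The treated libraries sat close together and far above the untreated ones. The log2 difference was 6.68 ± 0.62 (SE, FDR = 4.68e-05), a 102-fold rise. SRXN1, sulfiredoxin, which repairs overoxidised peroxiredoxins, went from 82.5, 92.5 and 101 CPM to 244, 353 and 294 CPM, a log2 difference of 1.68 ± 0.12 (FDR = 7.97e-06). OSGIN1, an oxidative stress-induced growth inhibitor, went from 0.881, 0.522 and 0.452 CPM to 15.4, 13.2 and 9.12 CPM (log2 difference 4.40 ± 0.33, FDR = 1.14e-05). GCLM and SLC7A11, which supply the glutathione pathway with a subunit of its first enzyme and with cystine, rose by 1.26 ± 0.10 and 2.33 ± 0.36 on the log2 scale. The SLC7A11 libraries held 7.36, 30.4 and 16.5 CPM without treatment and 92.9, 73.2 and 90 CPM with it, so the treated cultures were more alike than the untreated ones.

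In all, 5 of the 29 tested NRF2 and glutathione genes were upregulated DEGs (1.83% of all genes tested were) and 0 were downregulated. A further 8 passed the FDR below the fold limit, among them TXNRD1 (log2 difference 0.95), NQO1 (0.98), GCLC (0.79) and NFE2L2, the gene of NRF2 itself (0.55). The list median was 0.40. The antioxidant response element core, to which NRF2 binds with small MAF proteins, was searched for as TGACNNNGC on either strand in the RefSeq promoter windows of GRCh38.p14, which run from 250 bases before to 50 bases after a gene's start. Of the 5 DEGs, GCLM, OSGIN1 and SRXN1 had a window there, and GCLM held a match. HMOX1 and SLC7A11 were without an entry. Of the 24 other members 18 had a window and 7 held a match, against 16.1% of 27305 genes. The 250 bases before the GCLM start are shown because that match lies next to the start, with the element in capitals.
GCLM, chr1:93909431-93909680, minus strand: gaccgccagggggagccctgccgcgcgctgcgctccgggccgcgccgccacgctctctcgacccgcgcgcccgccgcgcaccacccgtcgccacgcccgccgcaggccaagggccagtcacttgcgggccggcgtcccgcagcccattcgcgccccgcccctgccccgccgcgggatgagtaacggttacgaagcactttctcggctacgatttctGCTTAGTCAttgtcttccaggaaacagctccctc
The match, on the opposite strand, begins 34 bases before the start, and GCLM itself was at 22.3, 25.6 and 26.6 CPM without treatment and at 57, 61.6 and 59.4 CPM with it.

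**Figure D2:**
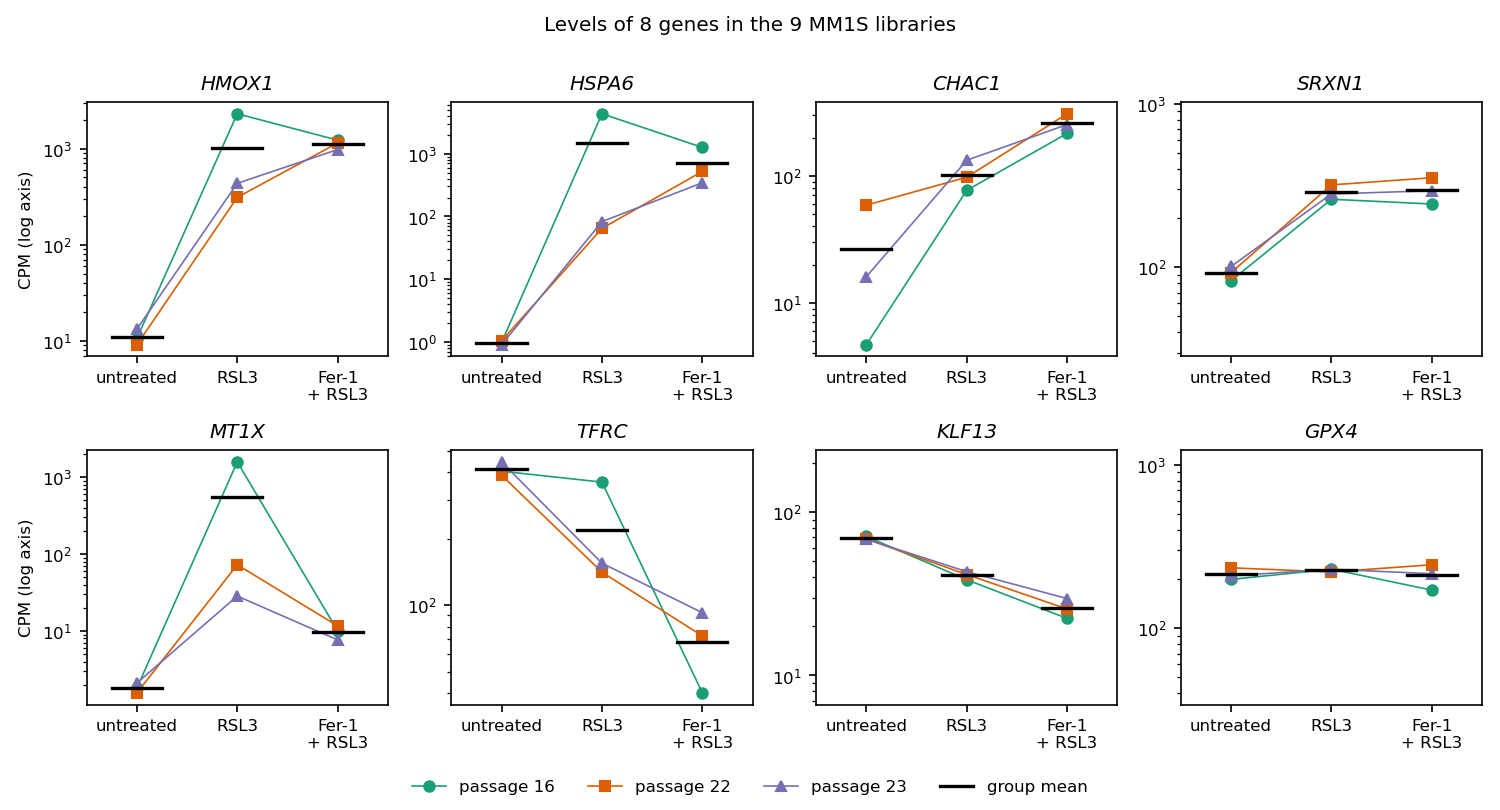
CPM on a log axis of 8 genes in the 9 MM1S libraries, by treatment. Each line joins the libraries of 1 passage and black bars are group means. HMOX1, HSPA6, CHAC1 and SRXN1 are higher and TFRC and KLF13 lower in all 3 Fer-1 plus RSL3 libraries than in the untreated ones, MT1X is highest with RSL3 alone, and GPX4 stays between 171 and 245 CPM.

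The heat shock list held the largest change of the comparison. HSPA6 (chromosome 1, 161494330 to 161496684, hg19), a strictly inducible HSP70 gene, was at 0.984, 1.04 and 0.903 CPM in untreated cells and at 1256, 522 and 344 CPM after Fer-1 and RSL3. Its treated libraries differed from each other by more than those of HMOX1, but the lowest was still far above any untreated one. The log2 difference was 10.08 ± 1.31 (FDR = 0.000435), and it was 8.29 to 11.42 when single libraries were left out. DNAJB1, the HSP40 partner of inducible HSP70, went from 184, 191 and 147 CPM to 3547, 3130 and 2546 CPM, a log2 difference of 4.11 ± 0.60 (FDR = 0.000797). BAG3, a nucleotide exchange factor that directs clients to autophagy, rose 11.1-fold, HSP90AA1, the inducible HSP90, 5.14-fold and the constitutive HSPA8 2.68-fold. HSPA8 was also among the most abundant genes, at 2899, 2962 and 2932 CPM without treatment and 7469, 8508 and 7538 CPM with it.

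Of 24 tested heat shock proteins and co-chaperones, 11 were upregulated DEGs (1.83% of all genes tested were) and 0 downregulated. All 24 fitted differences were above 0, and the median was 1.27 (1.42 with genes at the floor set to their bound). Another 4 passed the FDR below the fold limit, including STIP1 and AHSA1, co-chaperones of HSP90. HSPA1A and HSPA1B, the main inducible HSP70 pair, are nearly identical and their reads were spread over 10 entries, 3 of which were tested, so single entries are uncertain. The 10 entries together held 6.32, 7.21 and 4.47 CPM without treatment and 366, 361 and 288 CPM with it, again without overlap. HSPA7, a near copy of HSPA6, was at the floor in untreated cells and at least 43-fold higher with Fer-1 and RSL3 (12.2, 5.14 and 2.52 CPM), or 24.8-fold without the treated library of passage 16, though it lost its call without the untreated library of passage 16 (log2 difference 6.19, FDR = 0.101), and its reads may belong to HSPA6.

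The heat shock element, the site of HSF1, was searched for on both strands as 3 units, GAA, TTC and GAA, with 2 bases of any kind after each of the first pair, or the reverse complement of this pattern. A match lay in a promoter window of 6 of the 11 upregulated DEGs (CHORDC1, DNAJA1, HSP90AA1, HSPA6, HSPA8 and SERPINH1), all of which had a window, and in 3 of the 11 other members that had one, against 0.608% of 27305 genes. The upstream 250 bases of 4 of them are shown because they include the gene with the largest rise and the one with the most matches, with the element in capitals. The call of DNAJA1 was lost without the untreated library of passage 16 (FDR = 0.0665) or the treated library of passage 22 (FDR = 0.0527) or 23 (FDR = 0.0517).
HSPA6, chr1:161524290-161524539, plus strand: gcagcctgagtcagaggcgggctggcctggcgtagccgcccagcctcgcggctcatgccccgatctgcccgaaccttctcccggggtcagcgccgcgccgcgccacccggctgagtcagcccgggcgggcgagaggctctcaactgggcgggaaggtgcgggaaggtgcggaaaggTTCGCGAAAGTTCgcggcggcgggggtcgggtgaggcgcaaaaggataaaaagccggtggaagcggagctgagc
CHORDC1, chr11:90223050-90223299, minus strand: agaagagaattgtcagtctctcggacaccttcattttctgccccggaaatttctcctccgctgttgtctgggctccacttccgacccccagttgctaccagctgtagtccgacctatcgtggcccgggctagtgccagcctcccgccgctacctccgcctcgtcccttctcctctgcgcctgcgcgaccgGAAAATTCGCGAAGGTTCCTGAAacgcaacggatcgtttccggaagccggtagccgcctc
HSPA8, chr11:123062137-123062386, minus strand: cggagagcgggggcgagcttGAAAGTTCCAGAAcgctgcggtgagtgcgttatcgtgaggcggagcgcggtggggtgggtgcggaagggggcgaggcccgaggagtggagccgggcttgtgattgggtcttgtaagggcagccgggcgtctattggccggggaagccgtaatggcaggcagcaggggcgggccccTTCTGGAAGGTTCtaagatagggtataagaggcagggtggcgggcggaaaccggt
SERPINH1, chr11:75562003-75562252, plus strand: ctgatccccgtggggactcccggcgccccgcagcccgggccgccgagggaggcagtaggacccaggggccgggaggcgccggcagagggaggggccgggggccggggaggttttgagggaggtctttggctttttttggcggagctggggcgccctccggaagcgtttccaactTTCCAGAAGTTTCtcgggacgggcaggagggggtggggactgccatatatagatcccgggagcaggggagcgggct
The match in HSPA6 begins 74 bases before the start, and CHORDC1 holds 3 overlapping matches that begin 60, 55 and 50 bases before it. CHORDC1, an HSP90 co-chaperone, was at 1.19, 0.784 and 0.703 CPM without treatment and at 4.61, 3.5 and 2.88 CPM with Fer-1 and RSL3, a log2 difference of 2.06 ± 0.25 (FDR = 0.000278). SERPINH1, the collagen chaperone HSP47, was at 1.19, 0.157 and 0.0502 CPM and then at 7.99, 1.48 and 0.996 CPM, a log2 difference of 3.07 ± 0.36 (FDR = 0.000215). Its groups overlapped although each passage rose, and it was no DEG without the passage block (2.89). These matches are letters in a window and are not evidence of binding.

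Of 22 tested ATF4 targets, 17 were higher at the FDR (7.16% of all genes tested were) and 5 did not pass it. CHAC1 (chromosome 15, 41245160 to 41248710, hg19), a glutathione-degrading enzyme that ATF4 controls, was at 4.66, 58.7 and 16 CPM without treatment and at 216, 308 and 253 CPM with Fer-1 and RSL3. The untreated cultures were far apart and the treated ones alike, so the log2 difference of 3.67 ± 0.50 (FDR = 0.000539) was 3.07 without the untreated library of passage 16 and 4.75 without that of passage 22. DDIT3, the stress factor CHOP, went from 7.62, 15.7 and 9.54 CPM to 73.3, 63.9 and 75.7 CPM (log2 difference 2.69 ± 0.36, FDR = 0.000479). TRIB3, a pseudokinase that dampens ATF4 signalling, went from 46, 83.1 and 53.2 CPM to 116, 207 and 140 CPM (1.35 ± 0.11, FDR = 1.67e-05). All 3 treated libraries of these genes were above all 3 untreated ones.

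Of the 22 members 11 were upregulated DEGs, 0 were downregulated, and all 22 fitted differences were above 0, with a median of 1.1. The other DEGs were CEBPB and ATF3, transcription factors, DDIT4, an inhibitor of mTORC1, PSAT1, of serine synthesis, SLC3A2, the partner chain of SLC7A11, and JDP2, PPP1R15A and SLC7A11. SLC7A11 is also counted in the NRF2 list. Some of these calls were fragile when single libraries were left out. PPP1R15A (1.96, FDR = 0.0467) was lost in 12 of 18 fits (FDR up to 0.192, without the treated library of passage 22) and ATF3 in 4, those without the untreated library of passage 16 (FDR = 0.0859) or 23 (0.0583) or the treated library of passage 22 (0.097) or 23 (0.107). PSAT1 was below the fold limit without the passage 16 library of either group (0.92 without the untreated one), and JDP2 (1.93) was 1.31 without the untreated library of passage 16 and 2.97 without that of passage 22. JDP2 and PPP1R15A were no DEGs without the block. ATF4 itself was 0.78 ± 0.18 higher (FDR = 0.0128), below the fold limit. The endoplasmic reticulum unfolded protein response, which shares CHOP with this programme, was described by a separate list of 19 genes, of which 0 were DEGs by edgeR or DESeq2, 5 passed the FDR, all higher, and 9 had an unadjusted p under 0.05 (29.2% of all genes tested had). HSPA5, its main chaperone (BiP), was at 1054, 1137 and 1041 CPM without treatment and at 1347, 1519 and 1401 CPM with it, a log2 difference of 0.40 ± 0.10 (FDR = 0.0211). The list median was 0.15.

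The core of the C/EBP-ATF response element was searched for as TGATGNAA on both strands and found for 4 of the 10 upregulated ATF4 targets with a window and for 4 of 10 other members, against 4.46% of 27305 genes. The CHAC1 upstream sequence is shown because CHAC1 had the largest rise of the list, with the match in capitals.
CHAC1, chr15:40953221-40953470, plus strand: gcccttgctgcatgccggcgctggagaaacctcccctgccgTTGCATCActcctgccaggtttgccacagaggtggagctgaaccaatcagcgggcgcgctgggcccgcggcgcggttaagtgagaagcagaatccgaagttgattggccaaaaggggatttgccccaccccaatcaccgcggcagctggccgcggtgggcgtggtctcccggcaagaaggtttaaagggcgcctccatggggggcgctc
The match begins 209 bases before the start on the opposite strand.

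**Figure D3:**
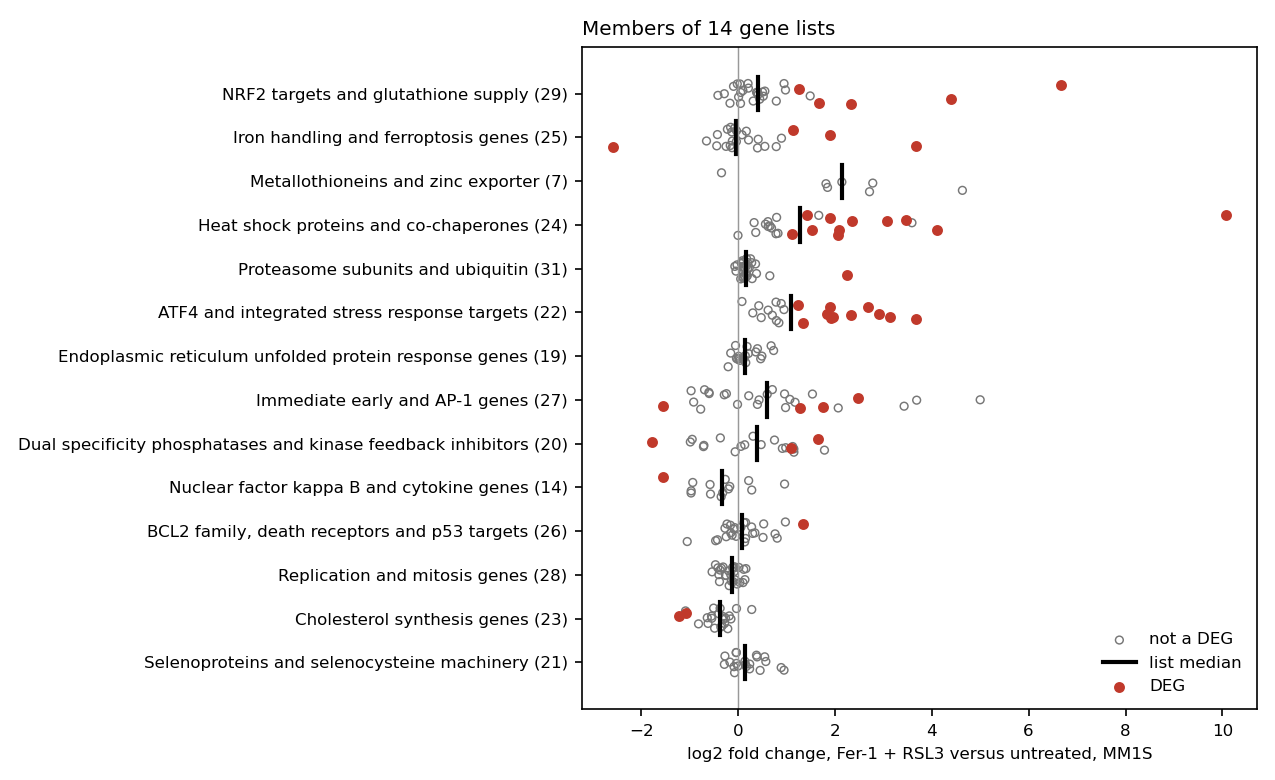
Log2 fold change of Fer-1 plus RSL3 versus untreated in MM1S cells (x axis) for each tested member of 14 gene lists, with the number tested in brackets. Red points are DEGs, open points other genes and black bars list medians. Red points lie to the right in the heat shock list (11) and the ATF4 list (11), and the cholesterol list lies almost wholly left of 0.

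Iron genes moved in both directions. TFRC (chromosome 3, 195739382 to 195809024, hg19), the transferrin receptor that brings iron into the cell, was at 405, 388 and 446 CPM without treatment and at 40, 72.5 and 92.4 CPM with Fer-1 and RSL3. The groups were far apart, and the log2 difference of -2.58 ± 0.43 (FDR = 0.00199), a 5.98-fold fall, was the largest fall among DEGs. With RSL3 alone TFRC was at 361, 141 and 155 CPM, the passage 16 library being near the untreated ones. FTL, the ferritin light chain, went the other way, from 991, 1713 and 1933 CPM to 2194, 4444 and 3568 CPM (log2 difference 1.13 ± 0.32, FDR = 0.0326). That call was lost in 4 of 18 fits that left out a library, those without the untreated library of passage 16 (0.85, FDR = 0.17) or 22 (1.20, FDR = 0.0949) and those without the Fer-1 plus RSL3 library of passage 22 (0.84, FDR = 0.192) or 23 (1.07, FDR = 0.136), and by DESeq2 and without the block. FTH1, the heavy chain, did not pass (log2 difference 0.40, FDR = 0.188).

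Of 25 tested iron and ferroptosis genes 3 were upregulated DEGs (CHAC1, SLC3A2 and FTL) and 1 was downregulated (TFRC), and the median was -0.033. Of all genes tested, 1.83% were upregulated and 0.847% downregulated DEGs. CHAC1 and SLC3A2 are also counted among the ATF4 targets above. AIFM2, or FSP1, a suppressor of ferroptosis that regenerates ubiquinol, was 0.79 ± 0.08 higher on the log2 scale (FDR = 6.97e-05), and ACSL4, which loads membranes with oxidisable fatty acids, was 0.65 ± 0.09 lower (FDR = 0.000502), both below the fold limit. GPX4, the target of RSL3, was at 199, 234 and 209 CPM without treatment and at 171, 245 and 216 CPM with it, and the groups overlapped (log2 difference -0.03 ± 0.11, FDR = 0.882). Of 21 selenoproteins and selenocysteine factors 0 were DEGs by edgeR or DESeq2. At the FDR 4 passed, all higher (7.16% of all genes tested were), and 9 had an unadjusted p under 0.05 (29.2% of all).

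Genes of cholesterol synthesis were lower. MSMO1, a sterol demethylase, went from 116, 158 and 165 CPM to 55.4, 73.5 and 78.6 CPM, a log2 difference of -1.08 ± 0.14 (FDR = 0.00043), and its treated and untreated libraries did not overlap. Of the 23 tested genes of the list 12 passed the FDR, all lower (7.5% of all genes tested were lower at that FDR), and 22 of the 23 fitted differences were below 0, with a median of -0.37. HMGCS1 and IDI1, early enzymes of the pathway, were lower by -0.62 and -0.63.

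Immediate early genes split. JUN, an AP-1 subunit, was at 39.1, 77.1 and 52.1 CPM without treatment, at 386, 347 and 287 CPM with Fer-1 and RSL3 and at 1963, 198 and 239 CPM with RSL3 alone. Its log2 difference for Fer-1 plus RSL3 was 2.48 ± 0.71 (FDR = 0.0336), and the call was lost without the block and in 5 of 18 fits that left out a library, with an FDR of up to 0.157, those without any 1 untreated library or without the treated library of passage 22 or 23. GADD45A, a growth arrest gene, was steadier, with a rise of 1.27 ± 0.13 (FDR = 0.0001) from 27.4, 30.2 and 31.7 CPM to 60.3, 80 and 75.5 CPM. GADD45G also rose (1.75 ± 0.33), and CCN2, a matricellular growth factor gene, fell from low levels (-1.54 ± 0.35), a call lost without the block and without the treated library of passage 22 (-1.41, FDR = 0.0545). These 4 were the DEGs among 27 members (2.68% of all genes tested were DEGs), whose median was 0.60. The count was 2 without the treated library of passage 22 and 8 without the RSL3 library of passage 16, which enters through the shared estimate of spread. NR4A1, an orphan nuclear receptor, was at 1.04, 2.77 and 1.71 CPM without treatment and at 24.2, 24.6 and 4.82 CPM with Fer-1 and RSL3. With RSL3 alone it was at 2073, 15.7 and 11.4 CPM. Its rise with Fer-1 and RSL3 did not pass the test in the main fit (FDR = 0.256). It was a DEG without a filter on low counts and in a fit of only the groups compared.

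Among 20 dual specificity phosphatases and kinase feedback inhibitors, SPRY1, a brake on receptor tyrosine kinase signalling, fell from 25.8, 16.4 and 12.8 CPM to 6.74, 5.74 and 3.41 CPM (log2 difference -1.78 ± 0.26, FDR = 0.000777). SPRY4, of the same family, rose by 1.65 ± 0.45 (FDR = 0.0287) and the phosphodiesterase PDE4D by 1.09 ± 0.34 (FDR = 0.0494), but neither call held without the block. Leaving out single libraries, these calls were lost in 5 and 12 of 18 fits, with an FDR of up to 0.207 for SPRY4 and 0.323 for PDE4D, both without the untreated library of passage 16. The DEGs of the list numbered 3 (2.68% of all genes tested were DEGs), and 1 to 8 when libraries were left out. The list had 8 without the RSL3 library of passage 16. It had 1 without the passage 16 library of either other group or without a later Fer-1 plus RSL3 library. In the list of 14 NF-kappa-B and cytokine genes CXCL10, a chemokine, was the 1 DEG, with 13.3, 2.98 and 4.92 CPM before and 4.2, 1.42 and 1.52 CPM after (-1.54 ± 0.29, FDR = 0.00415). Its call was lost without the block and without the treated library of passage 16 (-1.19, FDR = 0.0584). TNFAIP3, the NF-kappa-B inhibitor A20, was -0.97 ± 0.13 lower (FDR = 0.000442), just short of the fold limit. The list had 3 DEGs without the untreated library of passage 22 or 23.

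Lists of death, division and protein breakdown held few DEGs, where 2.68% of all genes tested were DEGs. PMAIP1, the BH3-only gene NOXA, was the 1 DEG of 26 BCL2 family, death receptor and p53 target genes, at 11.1, 28.2 and 16.2 CPM before and 41.9, 48.7 and 48.9 CPM after (1.35 ± 0.36, FDR = 0.0246), and the call was lost without the untreated library of passage 16 (0.95, FDR = 0.13) or 23 (1.36, FDR = 0.0771) and without the treated library of passage 22 (1.39, FDR = 0.0818) or 23 (1.12, FDR = 0.129). Of 28 replication and mitosis genes 0 were DEGs by edgeR or DESeq2, and the median was -0.12. At the FDR 4 passed, all lower (7.5% of all genes tested were), and 7 had an unadjusted p under 0.05 (29.2% of all). Of 31 proteasome and ubiquitin genes 1 was an upregulated DEG (1.83% of all genes tested were), and the list median was 0.16. The FDR was passed by 7, all higher (7.16% of all genes tested were). Among them, PSMD11 and PSMD12, proteasome lid subunits, had log2 differences of 0.36 and 0.38, below the fold limit.

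The genes with the smallest FDR were SRXN1 and OSGIN1 of the NRF2 list and 3 genes of no list, KLF13, MSC and ASF1A. KLF13 (chromosome 15, 31619038 to 31727868, hg19), a Kruppel-like transcription factor, was at 71, 68.4 and 68.3 CPM without treatment and at 22.4, 25.5 and 29.6 CPM with Fer-1 and RSL3, a log2 difference of -1.43 ± 0.09 (FDR = 7.97e-06). MSC, the transcription factor musculin, rose from 0.414, 0.418 and 0.351 CPM to 3.11, 4.37 and 3.3 CPM (3.16 ± 0.22). ASF1A, a histone chaperone, rose by 1.01 ± 0.07 from 72.2, 91.6 and 101 CPM to 161, 176 and 192 CPM, at the fold limit, so that it was under that limit without the block (0.998) and without the passage 16 library of either group (0.93 and 0.97).

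Other large falls were in SOX2, a pluripotency factor, from 130, 55.1 and 50.5 CPM to 21.2, 17.8 and 15.1 CPM (-2.03 ± 0.19, FDR = 5.2e-05), and CCR2, a chemokine receptor, from 22.5, 10.3 and 9.09 CPM to 4.51, 2.35 and 2.57 CPM (-2.11 ± 0.25, FDR = 0.000215). In both the passage 16 culture started highest, and no treated library reached an untreated one. C11orf96 (-2.11) and MYCL, a MYC family gene (-1.88), also fell, as did HBEGF, an EGF receptor ligand (-1.89), and the uncharacterised LOC101929536 (-1.93). C11orf96, HBEGF and LOC101929536 were no DEGs without the block, and the last 2 were lost in 8 and 4 of the 18 fits that left out a library (FDR up to 0.227 and 0.116, without the passage 16 library of Fer-1 plus RSL3 and of untreated cells, respectively). Among large rises at low levels, ACTRT3, an actin-related gene, went from 0.725, 0.679 and 0.402 CPM to 13.2, 7.49 and 6.76 CPM (4.01 ± 0.48, FDR = 0.000238). PGF, placental growth factor, was at the floor in untreated cells and at least 17.6-fold higher (2.28, 4.21 and 1.62 CPM). IFI44L, an interferon-induced gene, was at 2.33, 0.82 and 0.105 CPM in treated cells, the passage 23 library being under the floor itself, and RFPL2 at 2.39, 0.437 and 0.472 CPM. Their means were at least 7.04-fold and 7.12-fold above a floor of 3 counts per library, but 3-fold and 2.95-fold without the treated library of passage 16. Both lost the call without the passage 16 untreated library (FDR = 0.214 and 0.184) or treated library (FDR = 0.0559 and 0.103).

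RSL3 alone was set beside this response to see what Fer-1 left. The untreated libraries are the same in both comparisons, so the values below are given side by side with no test of their likeness. RSL3 against untreated gave 387 DEGs (2.71%), 315 upregulated (2.21%) and 72 downregulated (0.504%). HMOX1 differed from untreated by 6.09 on the log2 scale with RSL3 and by 6.68 with Fer-1 plus RSL3, SRXN1 by 1.64 and 1.68, GCLM by 1.35 and 1.26, DNAJB1 by 3.67 and 4.11, DDIT3 by 2.47 and 2.69. The heat shock list had 14 upregulated DEGs with RSL3 and 11 with Fer-1 plus RSL3, the ATF4 list 11 and 11, the NRF2 list 7 and 5, and the immediate early list 9 and 3. These counts do not test a difference between the treatments. In the direct test of Fer-1 plus RSL3 against RSL3, 0 members of any of these lists were DEGs (0.035% of all genes tested were). The 3 RSL3 libraries were far less alike. HSPA6 was at 4321, 64.5 and 82.8 CPM and HMOX1 at 2298, 310 and 434 CPM in them, and in both genes the Fer-1 plus RSL3 libraries lay between the passage 16 library and the other two.

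**Figure D4:**
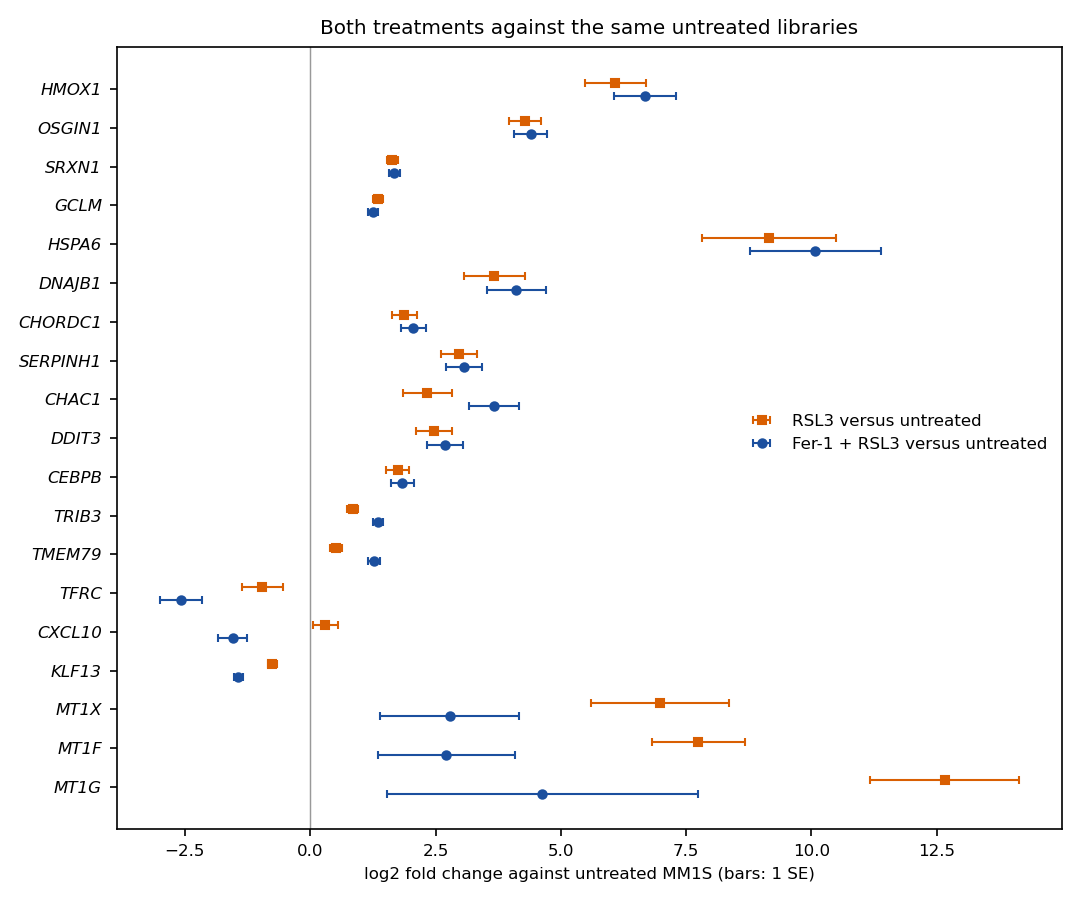
Log2 fold change against the same 3 untreated MM1S libraries for RSL3 (orange squares) and for Fer-1 plus RSL3 (blue circles), with bars of 1 SE, for 19 genes. From HMOX1 to SERPINH1 both points lie right of 0, closest together at SRXN1 and furthest apart at HSPA6 (9.15 with RSL3, 10.08 with Fer-1 plus RSL3). TFRC and KLF13 lie further left with Fer-1, and the metallothioneins MT1X, MT1F and MT1G lie further right without it.

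The direct test of Fer-1 plus RSL3 against RSL3 gave 5 DEGs (0.035%), all lower with Fer-1, and 0 higher, by edgeR, with 873 genes lower and 761 higher at an unadjusted p under 0.05. DESeq2 gave 7, also all lower, among which were MT1G and CXCL10 but not MT1F (FDR = 0.111) or MT1H (FDR = 0.135). It gave no adjusted p for MT1E. Of the 5, 4 were metallothioneins (MT1E, MT1F, MT1G and MT1H), small proteins that bind zinc and copper and are induced through MTF1, and the other was CXCL10. MT1E and MT1H were at the floor with Fer-1 and RSL3 and in untreated cells. They passed the count filter only through libraries of RSL3 alone, so they could only come out lower with Fer-1, and their fitted differences are not exact. MT1E was at 11.24, 0.1065 and 0.05335 CPM with RSL3 and at 0.05186, 0 and 0 CPM with Fer-1 and RSL3. MT1G was at 537, 20.6 and 9.55 CPM with RSL3 and at 0.467, 0.929 and 0.105 CPM with Fer-1 and RSL3, a log2 difference of -8.03 ± 1.05 (FDR = 0.0159), against 0 to 0.0502 CPM in untreated cells. MT1X, the most abundant member, was at 1.81, 1.57 and 2.11 CPM untreated, 1575, 72.6 and 28.4 CPM with RSL3 and 10.1, 11.6 and 7.65 CPM with Fer-1 and RSL3. The levels with Fer-1 thus lay below every RSL3 library and above every untreated one, without passing the test against either group (FDR = 0.205 against untreated, 0.352 against RSL3). Against untreated, Fer-1 plus RSL3 gave 0 DEGs among the 7 tested metallothionein and zinc exporter genes, in the main edgeR fit and by DESeq2. In the main fit 0 had an unadjusted p under 0.05. The median was 2.14, with 4 members at the floor in untreated cells and 2 of these also in treated ones. Other edgeR fits did call members higher, MT1X and MT2A with only the groups compared, and MT1X and MT1F without a filter on low counts. With RSL3 alone 6 were upregulated DEGs.

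Each of these 5 calls was lost without the passage 16 library of RSL3 or of Fer-1 plus RSL3. Without the passage 16 library of RSL3 there were 0 DEGs against RSL3, and the log2 difference of MT1G was -4.86 (FDR = 0.0804), that of MT1H -5.93 (FDR = 0.208), that of MT1E -3.02 (FDR = 0.928), that of MT1F -3.19 (FDR = 0.133) and that of CXCL10 -1.33 (FDR = 0.231). There were also 0 without the passage 16 library of Fer-1 plus RSL3, and 0 without the block. Leaving out other libraries one at a time gave 2 to 6 DEGs. The CXCL10 call was lost in 14 of the 18 fits, 7 of which left out an MM1R library, the MT1F call in 8, and the MT1G and MT1H calls in 3 each. The metal response element core, searched for as TGCACNC and TGCGCNC on both strands, was in the windows of all 4 members with an entry (MT1H, MT1X, MT2A and SLC30A1), against 33.4% of 27305 genes. MT1H is shown because it had the largest difference from RSL3, with the matches in capitals.
MT1H, chr16:56669564-56669813, plus strand: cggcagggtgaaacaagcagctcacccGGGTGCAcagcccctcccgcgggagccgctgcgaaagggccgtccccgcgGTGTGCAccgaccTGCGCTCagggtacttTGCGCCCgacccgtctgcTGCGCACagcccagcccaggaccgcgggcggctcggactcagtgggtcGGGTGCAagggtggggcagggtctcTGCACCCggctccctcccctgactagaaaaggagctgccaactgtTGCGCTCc
It held 8 matches and was at 60.3, 2.61 and 1.23 CPM with RSL3, at 0, 0.0547 and 0 CPM with Fer-1 and RSL3, and at 0 in the untreated libraries.

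Against RSL3, 8 genes passed the FDR (0.056%), 7 lower (0.049%) and 1 higher (0.007%), and those under the fold limit were picked out after their values were seen. KLF13, already lower with RSL3 (38.6, 41.5 and 43.2 CPM), was lower still with Fer-1 and RSL3, by -0.67 ± 0.09 (FDR = 0.0165). The 9 libraries fell into 3 separate levels by treatment. TMEM79, a membrane protein gene, was the 1 gene that passed in the other direction, at 14, 11.9 and 10.2 CPM untreated, 16.8, 16.7 and 17.3 CPM with RSL3 and 35.8, 26.1 and 25.1 CPM with both agents (0.75 ± 0.12, FDR = 0.0364). LOC730101, an uncharacterised locus, was lower (-0.57). None of these 3 passed without the passage 16 library of Fer-1 plus RSL3 (FDR = 0.922 for each) or of RSL3 (FDR = 0.0799 for KLF13, 0.0804 for LOC730101 and 0.131 for TMEM79). The TFRC difference from RSL3 was -1.63 ± 0.43 (FDR = 0.316) and that of CHAC1 1.33 ± 0.44 (FDR = 0.393), neither passing. Among DEGs of RSL3, those with the smallest p for a higher level with Fer-1 were BCL6, a transcriptional repressor, GREB1, DCHS1, DNER and KCTD21-AS1, with log2 differences of 0.89 to 2.26 and an FDR of 0.316 to 0.356, and SERPINB9, a granzyme B inhibitor, was beside 4 metallothioneins on the lower side (-2.38, FDR = 0.282).

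The same treatment in MM1R cells gave 521 DEGs (3.65%), 412 upregulated (2.88%) and 109 downregulated (0.763%). The log2 differences of MM1S and MM1R cells were 6.68 and 5.62 for HMOX1, 10.08 and 8.22 for HSPA6, 3.67 and 4.21 for CHAC1, -2.58 and -2.24 for TFRC, and -1.43 and -1.20 for KLF13. The heat shock list had 11 upregulated DEGs in MM1S and 10 in MM1R cells, the ATF4 list 11 and 12, and the NRF2 list 5 and 6. The test of the difference between the lines gave 2 DEGs (0.014%), SERPINH1 and SPIN3, with an unadjusted p below 0.05 for 1150 genes (8.05%), and both calls were lost in 14 of 18 fits that left out a library (FDR up to 0.531 for SERPINH1, without the untreated MM1S library of passage 16, and 0.948 for SPIN3, without the second treated MM1R library). NR3C1, the glucocorticoid receptor gene on which the lines differ, was at 152, 96.6 and 89.9 CPM in untreated and 163, 93.1 and 93.4 CPM in treated MM1S cells (log2 difference 0.03 ± 0.33). In MM1R cells it was at 14.4, 13.8 and 14.9 CPM untreated and at 16.9, 50.2 and 15.3 CPM treated, the second treated library standing apart.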

How the data were processed

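RNA was extracted from the cultures as total RNA and sequenced from BGI libraries. Per the labels and the submitters' processing notes, the authors used FastQC 0.11.5, STAR 2.7.3a, the build hg19 and DESeq2. The counting tool, annotation and strand setting are not given in the sources used here, so overlapping and antisense genes are uncertain. The deposited counts are raw reads per gene, and they were tested here. The deposited normalized table holds signal values that the authors scaled by size factors, and it served only as an alternative.

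Counts were filtered with filterByExpr at a minimum count of 10, scaled by TMM and tested with edgeR 4.0.16 in R 4.3.3 across all 18 libraries, with a block for each passage of each line and treatment effects within each line. Adjusted p-values are Benjamini-Hochberg FDR over 14281 genes. The SE is the log2 fold change divided by the square root of the F statistic. Passages pair the libraries in the labels. Deviations from the group means of MM1S libraries of the same passage correlated at 0.216 to 0.681 (9 pairs), and those of MM1R at 0.0338 to 0.516. A gene at 3 counts or fewer in every library of a group was taken as at the floor. On simulated counts, 198 of 200 genes changed 4-fold in this comparison were recovered, with 1 false call among 14010 genes. The changed genes all had a mean above 1 CPM, and no outlying library was simulated. Recovery of smaller changes, of genes under 1 CPM and with an outlying library was therefore not tested.

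The members and gene lists were chosen with earlier results of these data known. Named genes were the 12 largest rises and 8 largest falls among DEGs with a mean of at least 1 CPM in a group and 1 direction in every passage pair, up to 4 DEGs of each list by FDR (or the 2 members with the smallest p), GPX4, NR3C1, the cell type markers, the 5 smallest p in each direction against RSL3 among DEGs of RSL3, the 3 smallest p of the line difference and the 5 smallest FDR. Other genes were named after their values were seen. Alternatives were no block, other scalings and filters, DESeq2 1.42.0, fits of only the groups compared, limma 3.58.1 on the normalized values, other thresholds, and leaving out each library in turn. Floors cover counting error only. Some genes of the lists are not reported here by name.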

Additional observations from a re-analysis of the deposited data

Results flagged for a closer look

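SERPINH1 and SPIN3 were the 2 DEGs of edgeR's test of the line difference in the response to Fer-1 plus RSL3. Both calls were lost without the block, with limma, at a minimum count of 30 and without any 1 passage of MM1S. The MM1S minus MM1R difference of SERPINH1 was 3.08 ± 0.43 on the log2 scale (SE, FDR = 0.0484). Its level rose in each MM1S passage, while the MM1R libraries were at 4.83, 3.54 and 4.29 CPM untreated and 4.05, 3.59 and 4.97 CPM treated. The difference of SPIN3 was -7.61 ± 0.93 (FDR = 0.0484), a fitted value that depends on untreated MM1R libraries that were all at 0. SPIN3 was at 7.46, 7.52 and 8.68 CPM in untreated and 7.88, 7.54 and 8.07 CPM in treated MM1S cells, and at 0.253, 3.64 and 0.109 CPM in treated MM1R cells. The highest of these is the second treated MM1R library, in which NR3C1 also stood apart, and without it the SPIN3 difference was -4.47 (FDR = 0.948). MGST1, a microsomal glutathione transferase, had the next smallest p of this difference (FDR = 0.0774), and in MM1R cells it was at 10.6 CPM in that same library and at 0 in the other treated ones. Treated MM1S cells held MGST1 at 13 to 19.5 CPM. For NR3C1, SPIN3 and MGST1 that MM1R library thus lay nearer the MM1S levels than the other treated MM1R libraries did. What sets that library apart was not tested.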

How the results depend on the processing

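The 383 DEGs of Fer-1 plus RSL3 against untreated became 195 without the passage block, of which 193 were among the 383 (50.4% of them). The count was 692 at an FDR under 0.5, 2093 with no fold limit, and 183 to 488 when single libraries were left out, lowest without the untreated MM1S library of passage 16. Leaving out all MM1S libraries of passage 16, 22 or 23, added after seeing the data, gave 229, 260 and 283. Other scalings, filters, DESeq2, limma and a fit of only the groups compared gave 307 to 463. Without the block, 18 named genes lost the call: ASF1A, C11orf96, CCN2, CXCL10, FTL, HBEGF, IFI44L, IFIT3, JDP2, JUN, LOC101929536, MX1, MYCN, PDE4D, PPP1R15A, SERPINH1, SPRY4 and ULBP1.

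The 5 DEGs against RSL3 were 0 without the block pairing passages, 0 in a fit of only the groups compared, 0 with limma, 76 without a filter on low counts, 243 at an FDR under 0.5 and 8 with no fold limit. They were 0 to 6 without single libraries and 0, 3 and 2 without passage 16, 22 or 23. The 2 genes of the line difference were 0 without the block, with limma or at a minimum count of 30, 14 without a filter, 4 with only the groups compared, 6 at an FDR under 0.5, 0 to 4 without single libraries and 0 without any passage. The causes were not tested. No value changed sign after a call. Depth limits the genes near 3 counts per library.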

Other observations

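Lists described here were chosen after their values were seen, so their counts are descriptions. Ligands of NKG2D, an activating receptor of natural killer cells, were at low levels, and the filter on low counts left out 6 of the 9 listed. The 3 that could be tested were upregulated DEGs of MM1S cells after Fer-1 and RSL3 (1.83% of all genes tested were). A gene low in untreated cells can pass that filter through a treated group, so the 3 do not stand for the list. ULBP1 was at 0.0518, 1.2 and 0.1 CPM untreated and 7.42, 2.13 and 2.15 CPM treated (log2 difference 3.03 ± 0.69, edgeR FDR = 0.0119). ULBP3 went from 0.881, 0.784 and 0.653 CPM to 3.47, 2.46 and 1.73 CPM (1.70 ± 0.31, FDR = 0.00384). The groups did not overlap in either gene. The ULBP1 call was lost without the block (FDR = 0.0568) and without the untreated (1.91, FDR = 0.0796) or treated (2.66, FDR = 0.0703) library of passage 16, and its difference was 5.69 without the untreated library of passage 22. The list had 1 DEG without the block or without the passage 16 library of either group. Of 19 interferon-induced genes 9 were upregulated DEGs (1.83% of all genes tested were) and 1, IFIT3, was downregulated (0.847% of all). The IFIT3 call was lost without the block and in 5 of 18 fits that left out a library (FDR up to 0.176, without the untreated library of passage 16). MX1, an antiviral GTPase, was at 22.9, 7.21 and 5.27 CPM untreated and 77.5, 43.9 and 13.3 CPM treated (1.93 ± 0.33, FDR = 0.00256), and the passage 16 culture was highest in both groups. Its call was lost without the block (FDR = 0.142). That list had 10 DEGs in all, 1 without the block, 4 without the untreated library of passage 16 and 6 without the treated library of passage 16 or 22.

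MYB, a haematopoietic transcription factor, fell from 47.5, 61.5 and 67.8 CPM to 20.7, 29.1 and 31.4 CPM (-1.13 ± 0.16, FDR = 0.000672), and MYCN and MYCL also fell (MYCN with an FDR of 0.0534 without the block), while MYC did not pass the test (-0.92, FDR = 0.0794). TXNIP, a thioredoxin inhibitor, rose from 341, 268 and 196 CPM to 785, 547 and 531 CPM (1.22 ± 0.18, FDR = 0.000815). The related arrestin ARRDC3 rose by 1.66 ± 0.23 (FDR = 0.000617).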
